A study of Mus musculus with 6 samples.

Results

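The transcription regulators of brown adipocytes were taken as 10 genes, Ppargc1a, Ppargc1b, Prdm16, Zic1, Ebf2, Ppara, Pparg, Esrra, Esrrg and Cebpa, and every probe set that the platform annotation gave to them was used. A probe set is a group of short oligonucleotides on the array that together report 1 transcript. This found 15 of 22626 probe sets, which belonged to 9 of the 10 genes and to 9 of the 12393 genes tested. Prdm16 was not analysed here. Brown adipose tissue came from mice on a mixed C57BL6 and 129 background, 3.5 months old, kept on high fat feeding for 3 months. The control group (3 arrays) carried floxed alleles of Yy1, written YY1flox/flox. The YY1bKO group (3 arrays) carried the same alleles together with Ucp1Cre, a Cre recombinase under the Ucp1 promoter, so that recombination is directed to cells that express Ucp1 and the other cells of the depot keep their Yy1. Floxed alleles and diet were thus common to both groups, and carrying Cre cannot be told apart from losing Yy1. Whether each replicate came from its own animal is not in the labels. The p-values therefore reflect how far these samples vary, and part of that may be technical.

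Brown adipocytes burn fat to make heat, and a small set of regulators sets up and maintains that state. Zic1 marks the classical brown depot, Ebf2 and Prdm16 open the chromatin of brown-selective genes, and Pparg and Cebpa run the general adipocyte program. Ppara, Esrra and Esrrg are nuclear receptors that switch on genes of fatty acid oxidation and mitochondria, and the coactivators PGC-1alpha (Ppargc1a) and PGC-1beta (Ppargc1b) bind such receptors and raise their activity.

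The 250 bases before the transcription start are shown for the called members with a window in the RefSeq table used here (GRCm38.p6), namely Ppargc1a, Zic1 and Cebpa, and for the 1 window of a member that held a match to the core motif of YY1, which belongs to Pparg. A window was found for 8 of the 10 genes, 13 windows in all, since some genes have several starts. Ppargc1a lies at chr5:51567726-51567975 on the minus strand, Zic1 at chr9:91365769-91366018 on the minus strand, Cebpa at chr7:35119043-35119292 on the plus strand and the Pparg window at chr6:115421816-115422065 on the plus strand. Capitals mark matches on either strand to CCATNTT (the YY1 core), ACGTCA (a shortened cyclic AMP response element), AGGTCA (the hexamer of nuclear receptors) or TCAAGGTCA (the ERR element, which contains that hexamer).
Ppargc1a: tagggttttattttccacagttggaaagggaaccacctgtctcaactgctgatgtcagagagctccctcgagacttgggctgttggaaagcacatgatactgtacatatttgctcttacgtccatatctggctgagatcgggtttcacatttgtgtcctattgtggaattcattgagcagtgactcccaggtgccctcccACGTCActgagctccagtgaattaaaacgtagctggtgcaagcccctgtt
Zic1: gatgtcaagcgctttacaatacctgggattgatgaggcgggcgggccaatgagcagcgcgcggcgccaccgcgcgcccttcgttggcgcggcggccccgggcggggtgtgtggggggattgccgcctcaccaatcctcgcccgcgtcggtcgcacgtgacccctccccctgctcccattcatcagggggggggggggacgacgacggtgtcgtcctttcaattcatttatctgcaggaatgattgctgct
Cebpa: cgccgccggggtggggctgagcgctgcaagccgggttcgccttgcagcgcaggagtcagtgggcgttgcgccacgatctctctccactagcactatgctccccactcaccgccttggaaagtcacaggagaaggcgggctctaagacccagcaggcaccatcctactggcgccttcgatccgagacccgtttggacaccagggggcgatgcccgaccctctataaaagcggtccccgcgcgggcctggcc
Pparg: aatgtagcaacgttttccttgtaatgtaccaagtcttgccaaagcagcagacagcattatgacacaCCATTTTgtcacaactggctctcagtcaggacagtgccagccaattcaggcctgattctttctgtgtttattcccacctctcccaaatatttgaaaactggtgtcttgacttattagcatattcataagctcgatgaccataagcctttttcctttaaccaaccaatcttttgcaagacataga
The cyclic AMP response element match of Ppargc1a lay 50 to 45 bases before the start, and 6.47% of all 32851 windows of this length held such a match. The YY1 core match of Pparg lay 184 to 178 bases before the start, and 12.4% of all windows held one. The Zic1 and Cebpa stretches held none of these letters. The other Pparg windows each held 1 AGGTCA, a match found in 14.0% of all windows, and TCAAGGTCA, present in 0.387% of all windows, was found in no window of a member.

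All values below are RMA-processed intensities on the log2 scale, so that a difference of 1 is a doubling. A gene is represented by its brightest probe set unless another is named, and called means an adjusted p under 0.05 in limma's moderated test over all genes. By its brightest probe set, Yy1 itself was lower in each YY1bKO array, with a log2 difference of -1.43 ± 0.10 (SE, limma adjusted p = 0.000854). Its other probe sets gave -1.71, -0.81 and -0.06. The last was dim, with overlapping groups, and was not called (limma adjusted p = 0.766 over probe sets). The control arrays were not alike: the mean of 20 skeletal muscle genes was 10.43, 12.78 and 10.19 in control replicates 1, 2 and 3, and 11.59, 11.77 and 11.27 in YY1bKO replicates 1, 2 and 3, so control replicate 2 carried the most muscle transcript of the 6 arrays. The groups overlapped on this measure (two-sided exact permutation p = 0.7, where 0.1 is the smallest that 3 against 3 arrays allow). Of the 7 brown adipocyte markers, which include Ucp1 and Cidea, all were brighter than the median of all probe sets, and their mean was 12.05, 11.91 and 12.31 in control and 11.95, 12.14 and 11.94 in YY1bKO arrays. The brown markers were thus bright in both groups. All but 1 of the 20 skeletal muscle genes were also brighter than that median, so this mark does not tell the tissues apart.

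Among the 9 regulators, Ppargc1a and Zic1 were higher in YY1bKO tissue, and Cebpa and Ppargc1b were lower. The 2 higher genes are 22.2% of those measured, where 10.2% of all genes were called higher, and the 2 lower genes are again 22.2%, where 8.09% of all genes were called lower. The members were chosen with earlier results of these data known, so these shares are no test of the set. The rises were larger than the falls, 2.12-fold and 1.87-fold against 1.42-fold and 1.35-fold. The 3 YY1bKO arrays lay wholly above the control arrays for 2 of the 9 genes and wholly below for 2, where 22.8% and 15.7% of all genes did. Ebf2, Ppara, Pparg, Esrra and Esrrg were not called. The median log2 difference of the 9 genes was -0.19, beside 0.04 over all genes. The 2 rises were called under all 15 processing alternatives, whereas the count of lower members ran from 0 to 3 as single arrays were left out, as given for each gene below.

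**Figure D1:**
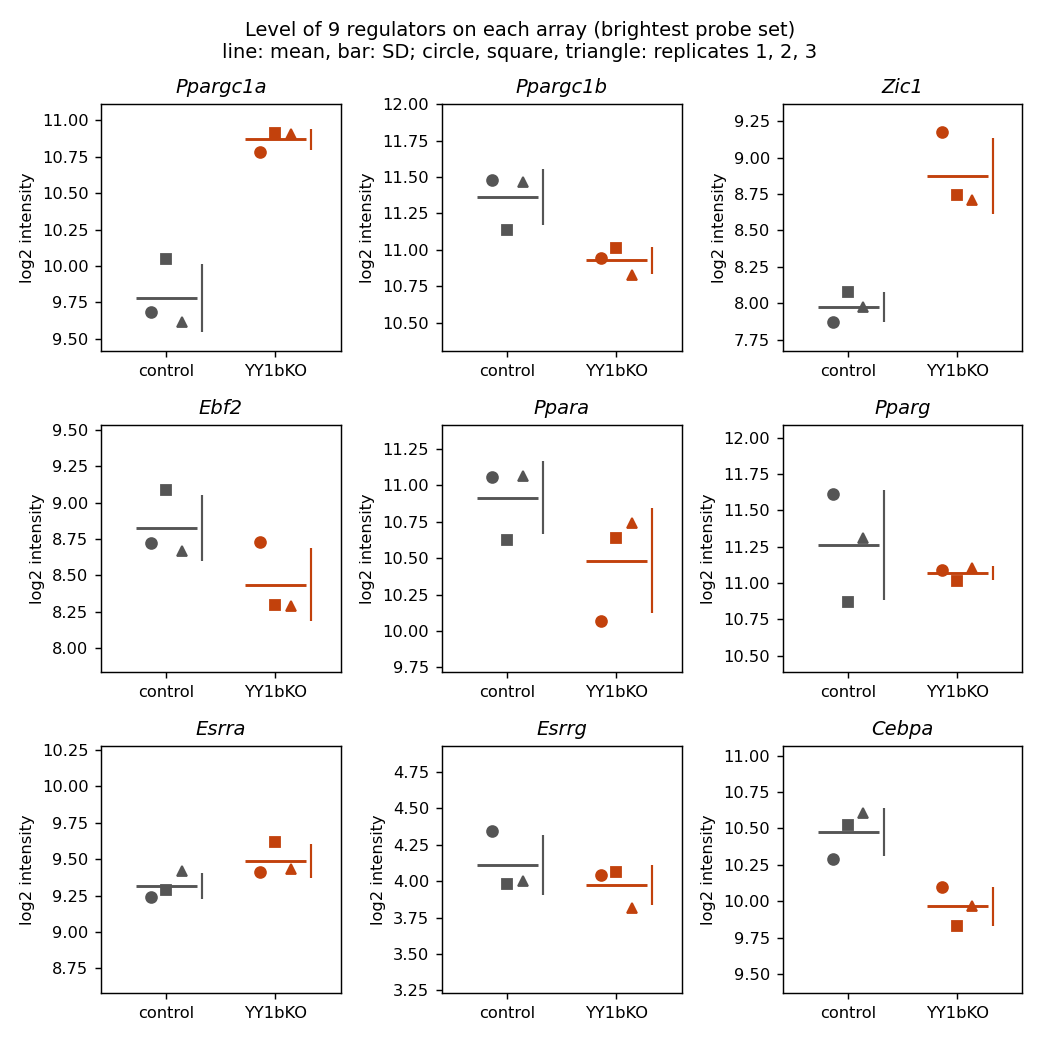
Log2 intensity (y axis, each panel spanning the same range) of the brightest probe set of the 9 measured regulators on each of the 6 arrays; points are arrays, lines group means and bars SD. Ppargc1a and Zic1 lie wholly above control in YY1bKO tissue, Cebpa and Ppargc1b wholly below, and the groups of the other 5 genes overlap.

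Ppargc1a encodes PGC-1alpha, the coactivator that cold and adrenergic signals induce in brown fat. Its brightest probe set, 1460336_at, read 9.68, 10.05 and 9.61 in control replicates 1, 2 and 3, and 10.79, 10.92 and 10.91 in YY1bKO replicates 1, 2 and 3. The lowest YY1bKO array was thus above the highest control array, which was control replicate 2, the array with the most muscle transcript. The log2 difference was 1.09 ± 0.13 (SE, limma adjusted p = 0.00356), and it ranked 115 among the rises of the 12393 genes. Leaving out any 1 array gave 1.00 to 1.22, with adjusted p from 0.000554 to 0.0235.

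Of the 5 probe sets of Ppargc1a, 3 were called higher and 2 were not called. Probe set 1456395_at read 8.60, 8.96 and 8.58 in control and 9.67, 9.78 and 9.65 in YY1bKO arrays, a difference of 0.99 ± 0.12 (SE, limma adjusted p = 0.00406 over probe sets). Probe set 1437751_at read 7.77, 8.26 and 7.79 in control and 9.01, 8.73 and 8.70 in YY1bKO arrays, a difference of 0.87 ± 0.16 (SE, adjusted p = 0.0139), whose call ended when control replicate 1 was left out (0.79, adjusted p = 0.0521) and likewise for YY1bKO replicate 1 (0.77, adjusted p = 0.0553). In all 3 of these probe sets the groups did not overlap, and control replicate 2 was the highest control array.

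Probe set 1434100_x_at read 7.21, 7.92 and 7.21 in control and 7.56, 7.48 and 7.54 in YY1bKO arrays. Probe set 1434099_at, which was designed from the same source sequence, read 7.12, 7.71 and 7.04 in control and 7.40, 7.26 and 7.33 in YY1bKO arrays. In both, control replicate 2 was the highest of the 6 arrays, the other control arrays were the lowest and the YY1bKO arrays lay between, which is also how the arrays stood on the muscle mean. Their differences were 0.08 (95% interval -0.38 to 0.54, limma adjusted p = 0.826) and 0.04 (-0.38 to 0.46, adjusted p = 0.914). Without control replicate 2 they were 0.32 (adjusted p = 0.0313, a call) and 0.25 (adjusted p = 0.0883). The part of muscle transcript in these values was not tested beyond a fit with the muscle mean as a covariate, in which the 3 brighter probe sets kept differences of 1.02, 0.92 and 0.79 and these 2 gave -0.03 and -0.06.

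The mean of the 3 brighter probe sets minus the mean of the other 2 is a within-array ratio. This split by brightness is also the split by call, so the ratio is given with no test. It averaged 1.44 with an SD of 0.15 over the 3 control arrays and 2.36 with an SD of 0.06 over the 3 YY1bKO arrays. The place of each probe set along the Ppargc1a transcripts was not analysed here. Averaged over all 5 probe sets, Ppargc1a was higher by 0.61 on the log2 scale (limma adjusted p = 0.0331).

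**Figure D2:**
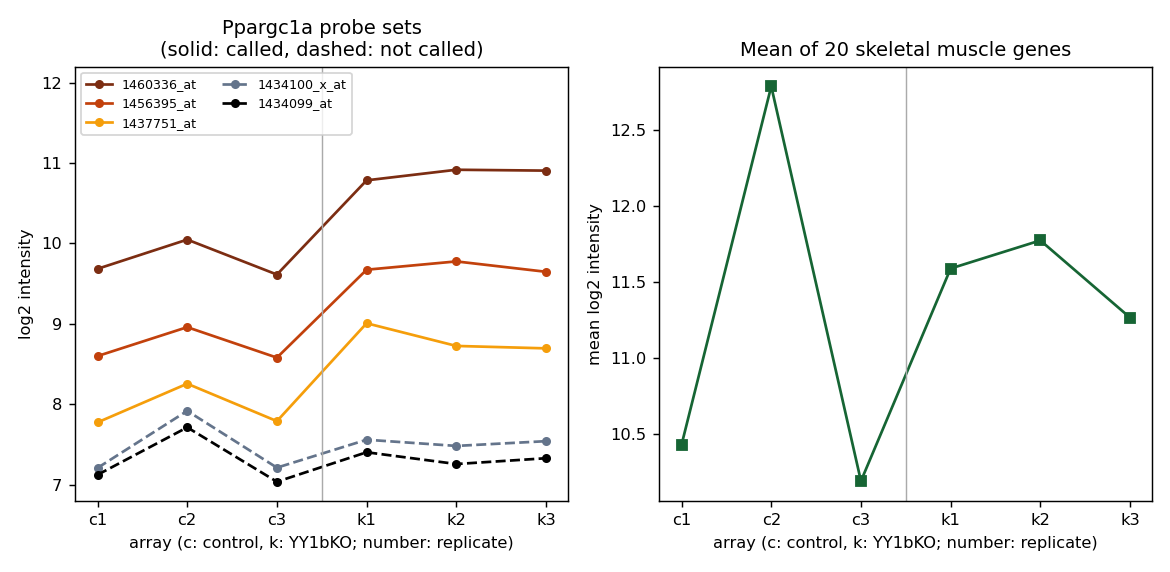
Left, log2 intensity of the 5 Ppargc1a probe sets on each array (c, control; k, YY1bKO; the number is the replicate); right, mean log2 intensity of 20 skeletal muscle genes on the same arrays. The 3 solid lines step up between the groups, while the 2 dashed lines peak in control replicate 2, where the muscle mean is 12.78.

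Ppargc1b encodes PGC-1beta, the related coactivator that drives mitochondrial genes with less dependence on cold. Its probe set read 11.48, 11.14 and 11.47 in control and 10.94, 11.01 and 10.83 in YY1bKO arrays, and control replicate 2 was the lowest control array yet above every YY1bKO array. The log2 difference was -0.43 ± 0.12 (SE, limma adjusted p = 0.0461). The call was lost without any array except control replicate 2, with adjusted p from 0.0979 to 0.150, and without control replicate 2 the difference was -0.55 (adjusted p = 0.00696). The log2 ratio of Ppargc1a to Ppargc1b, paired after their values were seen and given with no test, averaged -1.58 in control and -0.06 in YY1bKO arrays.

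Zic1 encodes a zinc finger factor whose expression is typical of the interscapular brown depot. It read 7.87, 8.08 and 7.97 in control and 9.17, 8.74 and 8.71 in YY1bKO arrays. YY1bKO replicate 1 was the highest, and the lowest YY1bKO array was still above all control arrays. The log2 difference was 0.90 ± 0.14 (SE, limma adjusted p = 0.00847), ranked 172 among the rises of all genes. It was 0.75 (adjusted p = 0.0184) without YY1bKO replicate 1 and stayed called without any other single array.

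Ebf2 encodes a factor that helps PPARgamma reach brown-selective genes, and it had 3 probe sets. The brightest, 1418494_at, read 8.72, 9.08 and 8.67 in control and 8.73, 8.29 and 8.29 in YY1bKO arrays. The overlap came from YY1bKO replicate 1, which lay among the control arrays, while the other YY1bKO arrays were below all of them. Probe set 1449102_at gave the same split, with 8.25, 8.51 and 8.09 in control and 8.15, 7.61 and 7.60 in YY1bKO arrays, as did 1449101_at for the split of YY1bKO replicate 1 (7.02) from the other YY1bKO arrays (6.53 and 6.73), with control between 6.94 and 7.13. The differences were -0.39 (95% interval -0.78 to -0.00), -0.49 (-0.92 to -0.07) and -0.26 (-0.58 to 0.07), and none was called (limma adjusted p of 0.165, 0.117 and 0.261 over probe sets). Without YY1bKO replicate 1, probe set 1449102_at gave -0.68 (adjusted p = 0.0494) and the brightest -0.53 (adjusted p = 0.0936). With the muscle mean as a covariate, the gene was called lower (-0.45, adjusted p = 0.0437). The log2 ratio of Zic1 to Ebf2, likewise a pair chosen after the values were seen and without a test, was -0.86, -1.01 and -0.70 in control and 0.45, 0.45 and 0.42 in YY1bKO arrays.

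Pparg, the nuclear receptor at the centre of adipocyte differentiation, read 11.61, 10.87 and 11.31 in control and 11.09, 11.01 and 11.10 in YY1bKO arrays. Control replicate 2 was the lowest of the 6 arrays and the other control arrays were the highest. The log2 difference was -0.19 (95% interval -0.63 to 0.24, limma adjusted p = 0.518), and -0.39 (adjusted p = 0.0434, a call) without control replicate 2.

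Ppara, the receptor that fatty acids activate in tissues that oxidise them, read 11.06, 10.63 and 11.07 in control and 10.07, 10.64 and 10.74 in YY1bKO arrays. YY1bKO replicate 1 was the lowest array, and control replicate 2 lay among the YY1bKO values. The log2 difference was -0.43 (95% interval -0.93 to 0.06, limma adjusted p = 0.206), and it was not called under any of the 15 alternatives.

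Cebpa encodes C/EBPalpha, which works with PPARgamma to switch on adipocyte genes. It read 10.29, 10.53 and 10.61 in control and 10.10, 9.83 and 9.97 in YY1bKO arrays, so that even the highest YY1bKO array was below every control array. The log2 difference was -0.51 ± 0.12 (SE, limma adjusted p = 0.0268). The call was lost without control replicate 3 (-0.44, adjusted p = 0.0695) or without YY1bKO replicate 1, 2 or 3 (-0.58, -0.44 and -0.51, adjusted p of 0.0533, 0.0963 and 0.0893).

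The estrogen-related receptors, which bind the ERR element and use PGC-1 coactivators in place of a known hormone, gave small differences. Esrra read 9.24, 9.29 and 9.42 in control and 9.41, 9.62 and 9.43 in YY1bKO arrays, a log2 difference of 0.17 (95% interval -0.05 to 0.39, limma adjusted p = 0.260). Esrrg ran from 3.98 to 4.35 in control and from 3.82 to 4.06 in YY1bKO arrays, well under 6.49, the median of all probe sets. At that intensity RMA compresses differences, and the Esrrg difference of -0.14 (95% interval -0.44 to 0.17, limma adjusted p = 0.522) is a weak measure of its transcript.

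**Figure D3:**
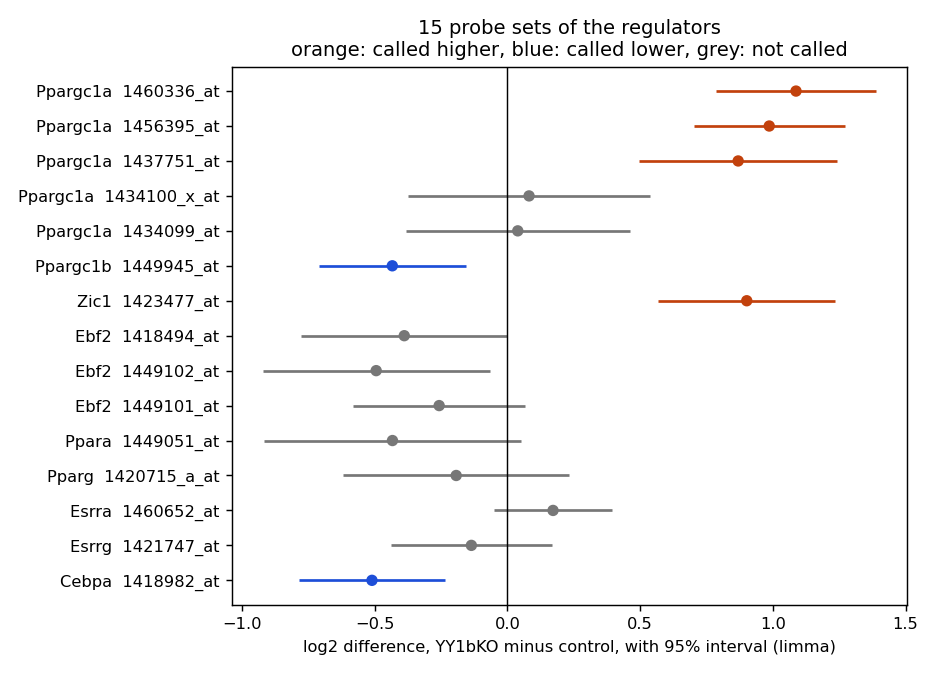
Log2 difference, YY1bKO minus control (x axis), with its 95% interval for each of the 15 probe sets; colour gives the call over all probe sets. The 4 called higher are 3 probe sets of Ppargc1a and that of Zic1, the 2 called lower are those of Ppargc1b and Cebpa.

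Counted by probe set, 4 of 15 were called higher and 2 lower, beside 8.83% and 7.16% of all 22626 probe sets. Of these 4, 3 report the same gene and are not independent of each other.

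No gene in the list of partner transcription factors passed the test in the main fit. Of 32 other transcription factors of the brown and white adipocyte programs, limma called 0 higher and 0 lower, while 0 and 6 had an unadjusted p below 0.05 in the higher and lower direction, with a list median of 0.02. Rxra, the partner with which PPARs bind DNA, had the smallest p, at 7.81 ± 0.21 in control against 7.41 ± 0.08 in YY1bKO tissue (SD, n = 3), with a difference of -0.40 (adjusted p = 0.0621), and its dimmer probe set gave -0.03. Tle3, a corepressor that competes with Prdm16 at PPARgamma, gave -0.77 (adjusted p = 0.103), Ebf3 -0.44 (adjusted p = 0.106) and Irf4, which works with PGC-1alpha, -0.72 (adjusted p = 0.126). Dimmer probe sets gave -0.67 and -0.24 for Tle3 and -0.33 and -0.43 for Ebf3, and none was called. Irf4 was dim, with a mean of 5.52 under the median of 6.49 of all probe sets, and its second probe set gave -0.05. Without control replicate 2, 3 of the 32 factors were called higher and 3 lower. Tle3 (-1.07, limma adjusted p = 0.00592) and Irf4 (-0.98, adjusted p = 0.0188) were among the lower, and the higher ones are not named here. Leaving out single arrays gave 547 to 1661 higher and 466 to 1439 lower among all 12393 genes, so these counts are not read as a result about the list.

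Among 25 coregulators and modifying enzymes, 3 (12%) were higher and 1 (4%) lower, shares near or below the 10.2% and 8.09% of all genes. Ctbp2, a corepressor that Prdm16 recruits to white adipocyte genes, rose by 0.63 ± 0.12 (SE, limma adjusted p = 0.0165), and its dimmer probe set rose by 0.38 (adjusted p = 0.0190 over probe sets). Rbl1, a retinoblastoma family protein, rose by 0.55 (adjusted p = 0.0211), although its dim second probe set gave -0.00. Mybbp1a, a repressor of PGC-1alpha, rose by 0.37 (adjusted p = 0.0384), and the acetyltransferase Crebbp fell by 0.44 (adjusted p = 0.0446). Ctbp2 alone of these 4 kept its call under all 15 alternatives. The Rbl1 call was lost without control replicate 1 or 3 or YY1bKO replicate 1 or 3 (adjusted p from 0.0582 to 0.0689), that of Mybbp1a without any array except control replicate 2 (adjusted p from 0.0926 to 0.132), and the Crebbp call was lost without any 1 of the 6 arrays (adjusted p from 0.0526 to 0.146). The list median was -0.05.

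Of 32 PPAR target genes, 3 (9.38%) were higher and 3 (9.38%) lower, with a median of -0.13. These shares are close to the 10.2% and 8.09% of all genes, so the counts show nothing particular to the list. Those lower were Pck1, which makes glycerol phosphate for fat storage (12.45 ± 0.32 in control, 11.36 ± 0.13 in YY1bKO, SD, n = 3, difference -1.09, limma adjusted p = 0.00794), the glycerol channel Aqp7 (-0.78, adjusted p = 0.00262) and the lipase inhibitor Angptl4 (-0.96, adjusted p = 0.0369). A second probe set of Aqp7 gave -0.08, and a second one of Pck1, very dim with a mean of 2.83, gave -0.04. Those higher were the peroxisomal thiolase Acaa1b (1.02 ± 0.15, SE, adjusted p = 0.00685), Retsat (0.52, adjusted p = 0.0132) and the hormone Fgf21 (1.62, adjusted p = 0.00901). Fgf21 was dim, with a mean of 6.24 over the arrays, under the median of 6.49 of all probe sets. The Angptl4 call was lost without any array except control replicate 2 (adjusted p from 0.0752 to 0.121) and that of Retsat without YY1bKO replicate 1 or 2 (adjusted p of 0.0581 and 0.0569), while Pck1, Aqp7, Acaa1b and Fgf21 stayed called without any single array. Averaged over its probe sets, Angptl4 gave a smaller difference that was not called (-0.62, limma adjusted p = 0.0997). Without control replicate 2, 7 of the 32 PPAR targets were lower. The count of lower genes among all 12393 also moved, from 466 to 1439 as single arrays were left out, so that count is not read as a result about the list.

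Of 39 PGC-1 and ERR target genes, 1 (2.56%) was higher and 8 (20.5%) were lower, with a median of -0.07, beside 10.2% and 8.09% of all genes. The list was chosen with earlier results of these data known, so these shares are no test of it. The respiratory chain subunits Ndufs1 (-0.55 ± 0.09, SE, limma adjusted p = 0.00888), Ndufb5 (-0.45 ± 0.08, adjusted p = 0.0112) and Uqcrc1 (-0.59 ± 0.11, adjusted p = 0.0131) and the citrate cycle subunit Idh3b (-0.41 ± 0.08, adjusted p = 0.0153) were lower, and the mitochondrial transcription factor Tfam was the higher gene. The calls of Uqcrc1 (lost without YY1bKO replicate 1 or 2, adjusted p of 0.0520 and 0.0547), Idh3b (lost without any array except control replicate 2 or 3, adjusted p up to 0.0654) and Tfam (lost without any array except control replicate 2, adjusted p from 0.0536 to 0.0885) depended on single arrays, whereas those of Ndufs1 and Ndufb5 did not. The mean of the 39 genes was 12.50, 12.43 and 12.53 in control and 12.34, 12.37 and 12.39 in YY1bKO arrays, with no overlap (exact permutation test, two-sided, p = 0.1, again the lowest possible). The number of lower genes was 3, 11 and 4 without control replicate 1, 2 or 3, and 2, 2 and 3 without YY1bKO replicate 1, 2 or 3. Across the same fits the number over all genes ran from 466 to 1439, against 1003 in the main fit.

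The 28 brown-selective genes, 3 of which are members, held 5 higher and 5 lower genes (17.9% each, beside 10.2% and 8.09% of all genes), and 3 higher and 5 lower without the members. The list was drawn up with earlier results of these data known, so its share of called genes is no test of it. Beside Ppargc1a and Zic1 the higher ones were the fatty acid elongase Elovl3 (1.14, limma adjusted p = 0.0396), the adhesion protein Mpzl2 (1.11, adjusted p = 0.00854) and the thioesterase Acot2 (1.02, adjusted p = 0.0132). The lower ones were Pm20d1, S100b, Cpn2, Fabp3 and Letmd1, of which Fabp3, a fatty acid carrier, fell by 0.75 (adjusted p = 0.00583). The Elovl3 call was lost without control replicate 1 or any YY1bKO array (adjusted p from 0.0812 to 0.129), that of Acot2 without control replicate 1 or YY1bKO replicate 1 or 2 (adjusted p from 0.0502 to 0.0592), and that of Letmd1 without any array except control replicate 2 or YY1bKO replicate 2 (adjusted p from 0.0534 to 0.0736). Ucp1, the uncoupling protein that PPARs and PGC-1alpha are known to induce, read 13.92 ± 0.06 in control and 13.78 ± 0.08 in YY1bKO (SD, n = 3) and was not called (-0.14, 95% interval -0.33 to 0.05, adjusted p = 0.292), nor were Cidea (-0.12, adjusted p = 0.447) and Dio2 (-0.87, adjusted p = 0.176). The dimmer probe sets of Dio2 gave -0.58 and -0.21 and were not called. Both Ucp1 and Cidea stood at percentile 99.9 of all probe sets in mean intensity, at the top of the scale. Without control replicate 2, 9 of the 28 brown-selective genes were lower, and without YY1bKO replicate 1 or 2 or control replicate 1, 3 were higher. As single arrays were left out, the counts among all 12393 genes ran from 466 to 1439 lower and from 547 to 1661 higher, so these list counts are not read as a result about the list.

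**Figure D4:**
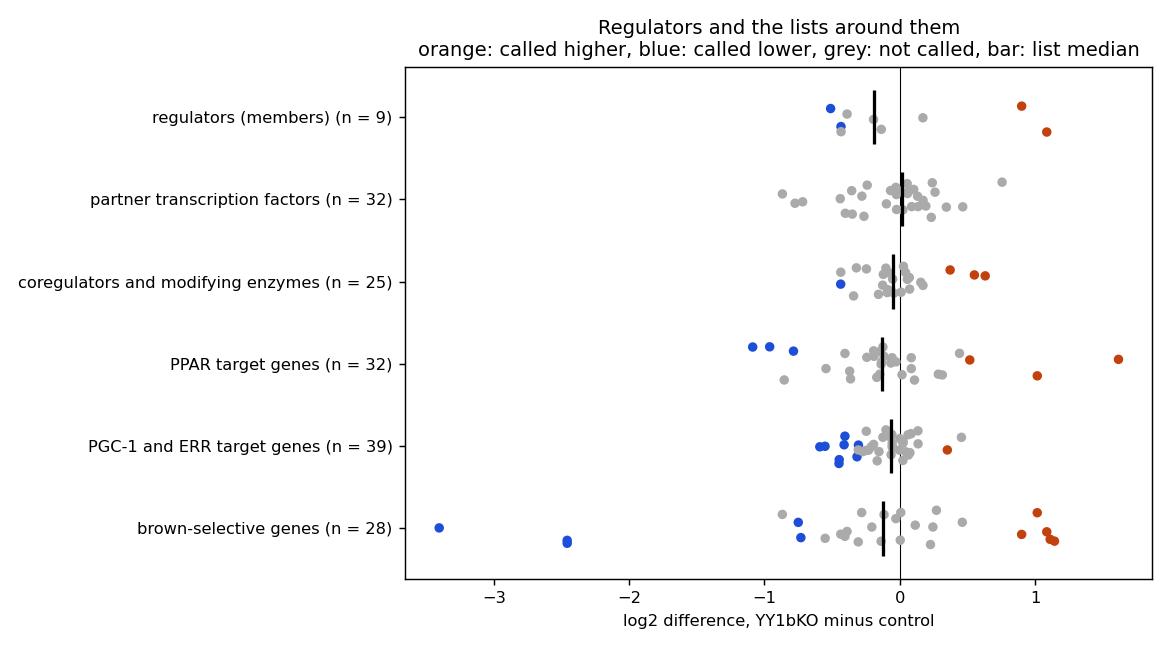
Log2 difference, YY1bKO minus control (x axis), of each measured gene in the regulators and in 5 lists of partners, coregulators and target genes; bars are list medians and colour gives the call. The regulators spread from -0.51 to 1.09, and the partner transcription factors hold no called gene.

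Endothelial markers were lower in YY1bKO tissue. Of 10 such markers, 0 were higher and 5 (50%) lower, beside 10.2% and 8.09% of all genes. The list mean ran from 8.38 to 8.68 in control and from 7.88 to 8.03 in YY1bKO arrays, with no overlap. Of 10 pericyte and smooth muscle markers, 4 (40%) were lower and 0 higher, beside 8.09% and 10.2% of all genes. However, 5 had positive differences and the list means overlapped, at 8.25 to 8.88 in control and 8.31 to 8.44 in YY1bKO arrays. The lower ones were Cspg4, Rgs5, Notch3 and Pdgfrb. The contractile genes Cnn1 (0.49, limma adjusted p = 0.0548, wholly above control, as were 22.8% of all genes), Tagln (0.38), Myh11 (0.33) and Acta2 (0.20) had positive differences and were not called. Of 6 Schwann and nerve markers limma called none in either direction (before adjustment, 1 rise and 0 falls had p below 0.05). Their mean was wholly above control, at 5.99 to 6.06 against 5.88 to 5.95 (two-sided exact permutation p = 0.1, the smallest possible). In bulk tissue, fewer cells of a type and less RNA per cell cannot be told apart, and the part of these cells in the regulator values was not tested. The list means of white adipocyte, leukocyte, fibroblast and liver markers overlapped between the groups, and leukocyte markers ran from 7.53 to 8.05 in control and from 7.85 to 7.99 in YY1bKO arrays. Of 10 white adipocyte markers, Lep was called lower (-2.00, limma adjusted p = 0.00881) and Psat1 higher (0.96, adjusted p = 0.00974). Of 14 leukocyte markers, Cd163 was called lower (-0.79, adjusted p = 0.0330). No fibroblast or liver marker was called. Of the skeletal muscle list, 1 of 20 genes (5%, beside 10.2% of all genes) was called higher, 18 had positive differences, and the list median was 0.42.

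**Figure D5:**
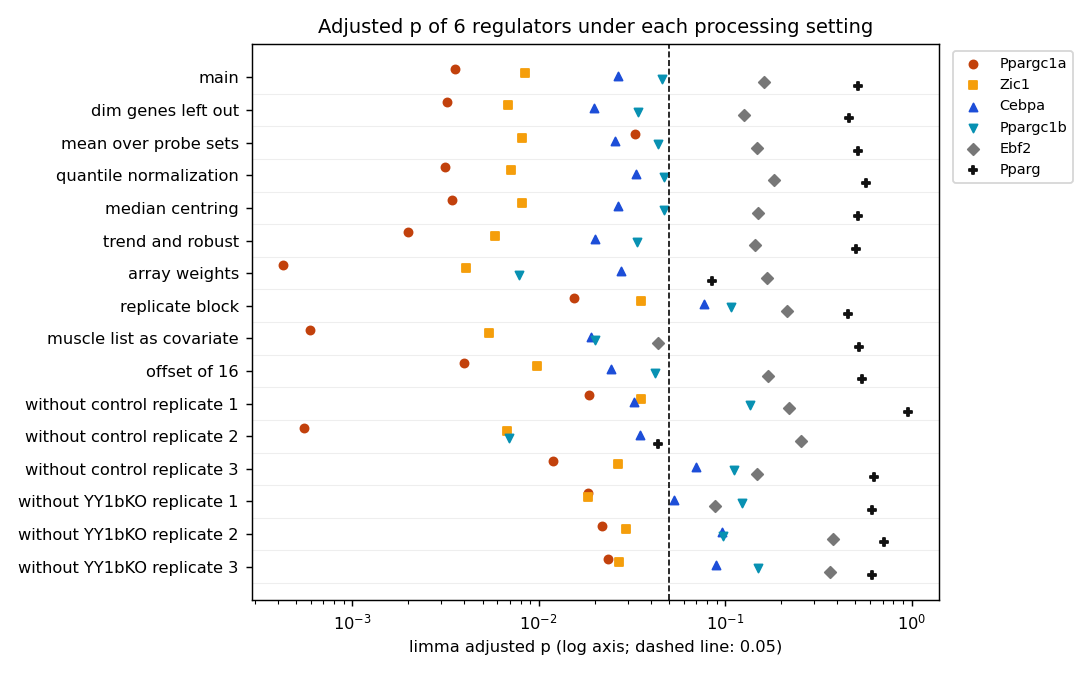
Limma adjusted p (log axis) of 6 regulators under the main setting and 15 alternatives; the dashed line is 0.05. Ppargc1a and Zic1 stay left of the line throughout, Cebpa and Ppargc1b cross it when most single arrays are left out, and Pparg and Ebf2 cross it in 1 setting each.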

How the data were processed

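Total RNA of brown adipose tissue was labelled as biotinylated cRNA and hybridised to Affymetrix arrays, 3 control and 3 YY1bKO, per the labels' protocols. The table deposited by the authors holds 1 intensity per probe set and array on a linear scale, and RMA is named in the submitters' processing notes, with version and options not given in the sources used here. It forces the arrays to a near-common distribution, so a shift of most transcripts in 1 direction would be hidden. Intensities were turned into log2 values with no pseudocount. After removal of 64 control probe sets, 20380 of 22626 had 1 gene symbol, 691 several and 1555 none here; each of 12393 genes was represented by its brightest probe set. Differences came from limma 3.58.1 under R 4.3.3 (functions lmFit and eBayes, with group the only term, 2.71 prior and 4 residual degrees of freedom), two-sided, with Benjamini-Hochberg adjustment over all genes or over all probe sets. Single values per array were compared by exact permutation. The fit was tested on simulated data. The number of arrays limits the precision. The members and lists were chosen with earlier results of these data known. Named genes were all members with every probe set, Yy1, up to 4 non-members per list by smallest p, Ucp1, Cidea and Dio2, and defining markers; other list genes named were chosen after their values were seen. Alternatives were the dim-gene filter, the mean over probe sets, quantile normalization, median centring, trend and robust eBayes, array weights, a replicate block, the muscle mean as covariate, an offset of 16 before log2 and leaving out each array. For probe sets, leaving out arrays, quantile normalization and the muscle covariate were chosen after seeing the data.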

Additional observations from a re-analysis of the deposited data

How the results depend on the processing

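Over the 15 alternatives, the 9 regulators kept the sign of their difference in all 134 values, in 121 of them on the same side of the threshold, in 11 past it no longer and in 2 newly past it. The count of higher regulators was 2 throughout. That of lower regulators, 2 in the main fit, ranged from 0 to 3 as single arrays were left out, 0 without control replicate 3 or any 1 YY1bKO array, and was 0 with the replicate block. Over all genes, leaving out 1 array gave 547 to 1661 higher and 466 to 1439 lower genes, the replicate block 671 and 639, and the muscle covariate 1849 and 1808, against 1267 and 1003 in the main fit. The replicate numbers share no label that pairs them: deviations of same-numbered arrays from their group means correlated with r of -0.25, 0.11 and 0.26 across genes, so the block uses up degrees of freedom without a stated pairing. With it, Ppargc1b (adjusted p = 0.107) and Cebpa (adjusted p = 0.0769) were not called. No called difference changed sign among the 40 genes tried. Esrrg has no value where dim genes were left out.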
